A study of Mus musculus with 35 samples.

Results

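The cytosolic heat shock proteins described here are 10 genes: the Hsp70 genes Hspa8, Hspa1a and Hspa1b, the Hsp70 partners Dnajb1, Hsph1 and Bag3, the Hsp90 gene Hsp90aa1, and the small heat shock protein genes Hspb1, Hspb6 and Hspb8. They were taken by name from a table of 27012 genes, and all 10 were present. The choice was made with earlier results of these data known. All 10 also passed the filter on low values, a mean normalised read count of at least 10 over all libraries, which 13695 genes passed. Hspa1a did so only through its libraries after pressure overload, since its mean in each sham group lay between 4.57 and 8.84.

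Heat shock proteins are chaperones, which hold unfolded proteins and help them to fold, to be refolded or to be handed on for degradation. In the cytosol the Hsp70 proteins bind clients in cycles of ATP hydrolysis that J-domain proteins start and nucleotide exchange factors end, Hsp90 acts on more mature clients such as kinases and steroid receptors, and small heat shock proteins hold aggregating clients without ATP. In heart muscle small heat shock proteins and BAG3 attend to the sarcomere and its Z-disc, and transcription of several of these genes is driven by heat shock factors that bind heat shock elements in their promoters.

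RNA sequencing was done on mouse heart apices collected on day 3 after transaortic constriction (TAC), which narrows the aorta and loads the left ventricle with pressure, or after a sham operation without constriction. Surgery was done at 6 weeks of age, and every group was on the C57Bl/6/FVB background. WT mice carried the IRS2-flox alleles without Cre, IRS1KO mice carried IRS1-flox with alphaMHC-Cre, and IRS2KO mice carried IRS2-flox with alphaMHC-Cre, a transgene whose promoter is active in cardiomyocytes. There were 6 libraries in each of the 6 groups of genotype and operation, except for 5 in WT TAC. No group carried Cre alone or IRS1-flox without Cre, so an effect of the IRS1-flox allele or of its surroundings cannot be told apart from the loss of Irs1. Both knockouts carry alphaMHC-Cre, so IRS1KO against IRS2KO compares 2 groups with Cre, and IRS2KO against WT compares a group with Cre and one without. The labels do not say whether libraries of a group came from separate mice, so the p-values rest on library-to-library spread, which may be technical.

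Each library held 11707111 to 14609467 reads on genes. Irs1 ran from 172 to 310 in WT sham, from 135 to 221 in WT TAC, from 0 to 43.8 in IRS1KO sham and from 0 to 80.3 in IRS1KO TAC, with IRS1KO TAC replicate 5 at the top of its group. Irs2 ran from 93.0 to 564 in WT sham, from 98.1 to 138 in IRS2KO sham, from 130 to 303 in WT TAC and from 78.6 to 196 in IRS2KO TAC, so the ranges overlapped. The 6 cardiomyocyte markers (Myh6, Tnnt2, Tnni3, Actc1, Myl2 and Pln) were above 0 in the libraries, with summed normalised read counts from 349890 to 887490. Reads from the mitochondrial genome made up 26.4% to 31.3% of reads in sham libraries and 15.6% to 28.0% in TAC libraries. The 3 TAC libraries with the largest mitochondrial share, IRS2KO TAC replicates 1 and 4 and WT TAC replicate 2, stood nearest to sham, and results that rest on TAC libraries are given with and without them where they differ.

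Promoter windows, each of 300 bases from 250 before to 50 after a start site, were taken from RefSeq on GRCm38.p6 for 8 of the 10 genes (11 windows, not for Hspa8 and Hsp90aa1). A pair of inverted heat shock element units was searched as GAANNTTC or TTCNNGAA, each of which reads the same on both strands, and a run of 3 units as GAANNTTCNNGAA or its reverse complement TTCNNGAANNTTC, which contains pairs. A pair was found in 8 of the 11 windows, those of 7 genes, against 15.1% of all 32851 windows of the same length, and a run of 3 units in Hsph1 only, against 0.603% (198 windows). Windows with a match are not all separate, since the Hsph1 windows overlap and those of Hspa1a and Hspa1b are nearly identical. The stretches below hold those matches in capitals and are written 5′ to 3′ on the strand of the gene. They are shown for Hspa1b and Hspb1, which rose after TAC in each genotype, for Hspa1a, which rose in WT and IRS1KO, and for Hspb6 and Hsph1, which also hold a match before a start site but were not called higher on the deposited scale.
Hspa1a (chr17:34972217-34972296, minus strand): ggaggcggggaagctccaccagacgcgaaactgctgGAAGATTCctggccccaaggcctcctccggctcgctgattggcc
Hspa1b (chr17:34959299-34959378, minus strand): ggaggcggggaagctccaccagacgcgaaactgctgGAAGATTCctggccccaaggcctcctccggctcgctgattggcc
Hspb1 (chr5:135887779-135887858, plus strand): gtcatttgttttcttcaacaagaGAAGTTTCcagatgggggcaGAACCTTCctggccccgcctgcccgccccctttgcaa
Hspb6 (chr7:30553161-30553240, plus strand): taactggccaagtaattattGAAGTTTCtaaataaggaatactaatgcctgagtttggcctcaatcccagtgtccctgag
Hsph1 (chr5:149636347-149636396, minus strand): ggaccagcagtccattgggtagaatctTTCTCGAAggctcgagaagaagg
Hsph1 (chr5:149636287-149636310, minus strand): atgctgcagaTTCTGGAAAGTTCt
The Hspa1a and Hspa1b windows had the same base at 296 of 300 positions (98.7%), and the 80 bases shown were identical. Hspb1 had matches starting at positions -117 and -97 from its start site. In Hspb6 the match lay in the window of the second of its start sites and not in that of the first. Hspb8 and Bag3 each had the match GAAGTTTC after the start site, from positions 3 and 43, and neither window of Dnajb1 held a pair. A match is a description of the letters and does not show that a factor bound there.

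Levels are first compared between genes as normalised read counts per kb of exon, in WT sham hearts. The length is that of the exons of all annotated transcripts of a gene joined. It was 4301 bases for Hspa8 and 1950 for Hspb8, against 2394 and 1816 for the transcripts whose 50-base stretches are compared below. The order of the genes, their overlaps and the shares per kb depend on this choice of length. Hspb6, a small heat shock protein phosphorylated by cyclic nucleotide-dependent kinases, was highest at 4943 ± 186 (SD, n = 6). Hspb8, which works with BAG3, followed at 3037 ± 174, and Hspa8, the constitutive Hsp70, at 2918 ± 218, with ranges that overlapped each other. Hspb1 stood at 1341 ± 67.8 and Bag3 at 1148 ± 53.6 per kb. Hsp90aa1, the inducible form of cytosolic Hsp90, reached 278 ± 16.9, Hsph1 91.9 ± 6.77 and Dnajb1 50.7 ± 10.4. The inducible Hsp70 genes were lowest, Hspa1b at 4.24 ± 1.41 and Hspa1a at 2.51 ± 1.30 per kb, and their ranges overlapped. After TAC the order at the top was no longer separated by range: in IRS1KO TAC Hspb1 was at 4736 ± 1621 and Hspb6 at 3781 ± 628 per kb, and in WT TAC the 4 highest genes (Hspb6, Hspb1, Hspb8 and Hspa8) each overlapped the next.

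**Figure D1:**
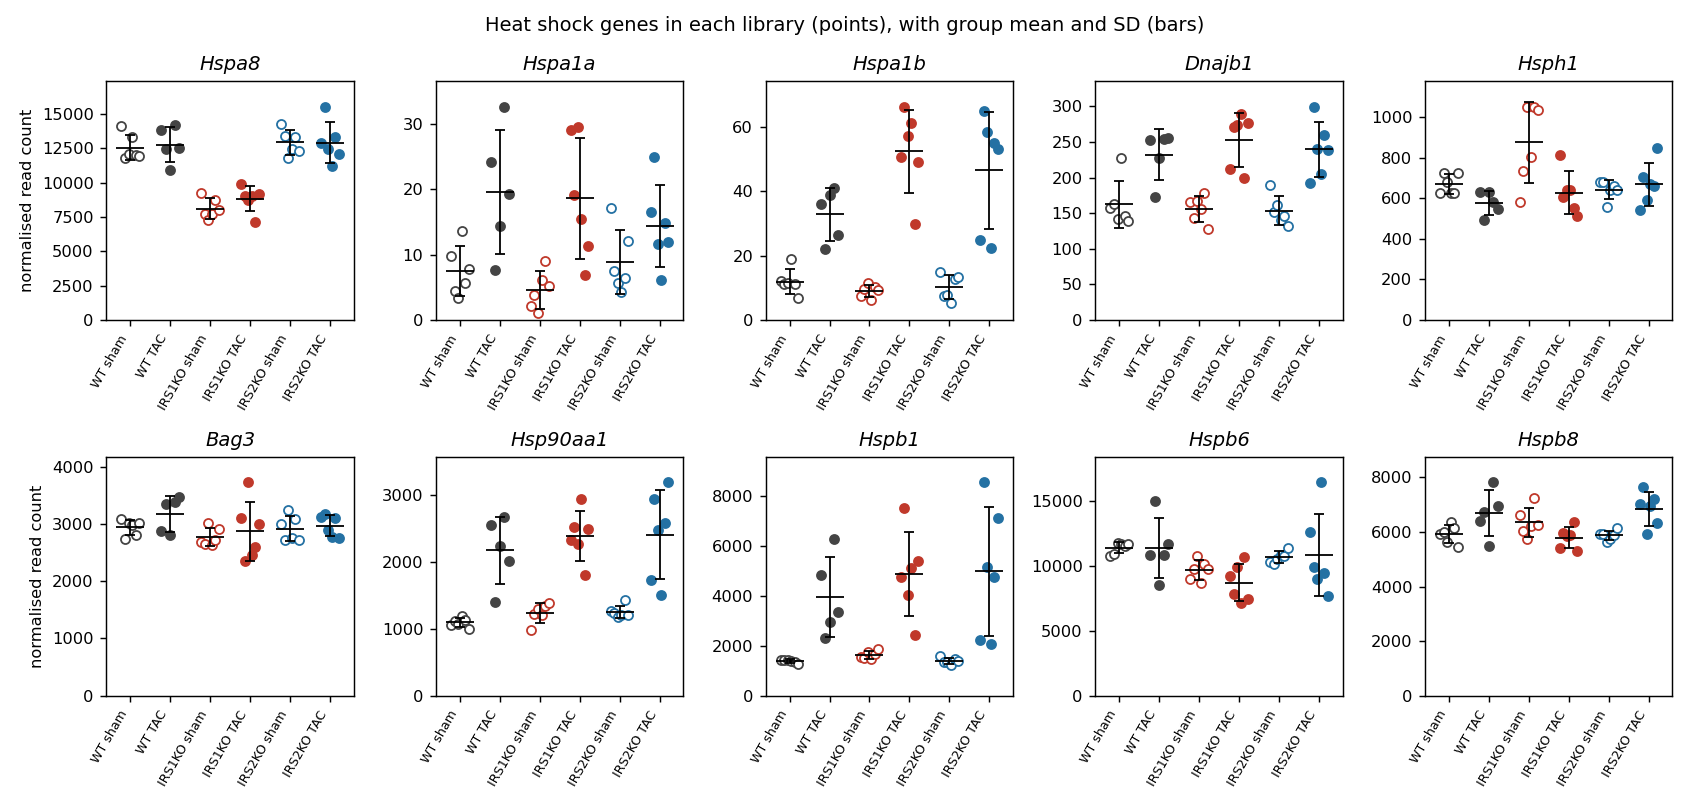
Normalised read count (vertical axis, from 0) of each of the 10 genes in every library, by group; open points are sham and filled points TAC libraries, and bars give the group mean and SD (n = 6, 5 in WT TAC). Hspa1b, Hspb1 and Hsp90aa1 lie above sham in every TAC library of the same genotype, and Hspa8 is lower in all 12 IRS1KO libraries than in the other 23.

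TAC against sham was tested within each genotype. In WT hearts 5 of the 10 genes rose and 0 fell, where 28.3% of all genes tested rose and 26.6% fell. In IRS1KO hearts 5 rose and 1 fell, against 32.4% and 31.7% of all genes. In IRS2KO hearts 5 rose and 0 fell, against 31.3% and 31.1%. Hspa1b, Hspb1, Hsp90aa1 and Dnajb1 rose in each genotype, Hspa1a rose in WT and IRS1KO, Hspb8 rose in IRS2KO, and Hsph1 fell in IRS1KO. Hspa1a passed the filter only through its TAC libraries, so its place in these counts favours a rise. These calls are limma's, with p-values adjusted by the Benjamini-Hochberg method over 13695 genes. Without the 3 TAC libraries nearest to sham the counts were 5, 6 and 6: Hspb6 was then called lower in IRS2KO (-0.25, adjusted p = 0.0294), and the IRS2KO rise of Hspb1 was 2.16 in place of 1.65.

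Every TAC library stood above every sham library for 3 of the 10 genes in WT, where 17.2% of all genes did so. The count was 4 of 10 in IRS1KO, against 20.5%, and 4 of 10 in IRS2KO, against 15.7%. Each count covers Hspa1b, Hspb1 and Hsp90aa1, and in both knockouts also Dnajb1.

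Hspa1b (chr17:34956436-34959238, minus strand), a stress-inducible Hsp70, was at 6.78 to 19.0 normalised reads in WT sham, with a median of 11.3. In WT TAC the libraries had 35.9, 22.1, 38.8, 40.9 and 26.3. No TAC library overlapped the sham range, and the rise was 1.41 on the log2 scale (SE 0.277, adjusted p = 0.000101), or 2.76-fold in the means. In IRS1KO the gene ran from 6.12 to 11.4 in sham (median 9.50) and from 29.7 to 66.2 after TAC (median 53.8). That rise of 2.39 (SE 0.264, adjusted p = 6.26e-09), 5.79-fold in the means, had no overlap either. In IRS2KO it ran from 5.39 to 14.8 in sham (median 10.3) and from 22.4 to 64.9 after TAC (median 54.0). The IRS2KO rise was 2.04 (SE 0.264, adjusted p = 1.41e-07), with 4 TAC libraries between 53.1 and 64.9, and replicates 1 and 4 at 24.8 and 22.4.

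Hspa1a (chr17:34969190-34972156, minus strand), its neighbour copy, was at 3.40 to 13.7 in WT sham (median 6.68). WT TAC libraries had 24.2, 7.68, 14.4, 32.7 and 19.3, with replicate 2 inside the sham range. The WT rise was 1.27 (SE 0.421, adjusted p = 0.0116), and it did not pass after quantile normalisation (0.79, adjusted p = 0.119). In IRS1KO it went from 1.04 to 9.04 (median 4.52) in sham to 6.94 to 29.5 (median 17.4), a rise of 1.85 (SE 0.401, adjusted p = 0.000178) with replicate 5 inside the sham range. In IRS2KO it did not pass, at 4.31 to 17.2 (median 6.93) in sham and 6.11 to 25.0 (median 13.4) after TAC (log2 difference 0.67, SE 0.401, adjusted p = 0.146). These levels are a few reads per library, and the value + 1 in the log understates the change.

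Reads of these copies are hard to separate. Of the 50-base stretches of the Hspa1a transcript 66.3% occurred in another gene, 58.8% in Hspa1b, and of those of Hspa1b 62.3% occurred in Hspa1a. The rule by which such reads were assigned is not stated in the labels, so the share of each copy is uncertain. Together the 2 copies made up, per kb, 0.228% ± 0.0703 (SD, n = 6) of the 3 Hsp70 genes in WT sham and 0.611% ± 0.165 (n = 5) in WT TAC. In IRS1KO the share went from 0.253% ± 0.0550 to 1.19% ± 0.264, and in IRS2KO from 0.218% ± 0.0850 to 0.697% ± 0.209. Hspa8 made up the rest.

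Hspb1 (chr5:135887919-135889563, plus strand) encodes the small heat shock protein known as Hsp25 or Hsp27, which binds actin filaments and unfolded proteins. WT sham libraries lay between 1262 and 1446 normalised reads (median 1394). WT TAC libraries had 4856, 2297, 2956, 6300.3 and 3354. All 5 were above sham, but they spread over a wide range, with replicate 2 lowest and replicate 5 highest. The rise was 1.42 (SE 0.273, adjusted p = 7.36e-05), 2.86-fold in the means. IRS1KO went from 1470.2 to 1868 (median 1612) in sham to 2438 to 7521 (median 4942), a rise of 1.5 (SE 0.260, adjusted p = 9.77e-06). IRS2KO went from 1235 to 1590.4 (median 1364) to 2083 to 8554 (median 4957), a rise of 1.65 (SE 0.260, adjusted p = 3.02e-06). In both knockouts the TAC libraries were all above sham, and the lowest were IRS1KO replicate 5 and IRS2KO replicates 4 and 1. Of the 50-base stretches of Hspb1, 51.6% also occur in the pseudogene Hsp25-ps1, whose own mean was 2.72 in WT sham and 8.20 in WT TAC.

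Per kb, Hspb1 made up 14.4% ± 0.761 (SD, n = 6) of the 3 small heat shock genes in WT sham and 30.9% ± 8.90 (n = 5) in WT TAC. The share went from 17.6% ± 1.13 to 40.5% ± 10.5 in IRS1KO and from 15.1% ± 1.25 to 35.9% ± 15.2 in IRS2KO. In the lowest TAC library of each genotype it was 18.3%, 23.0% and 15.9%, the last inside the IRS2KO sham range of 13.5% to 17.1%.

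Hsp90aa1 (chr12:110690605-110702728, minus strand) was between 998 and 1191 normalised reads in WT sham (median 1096). WT TAC libraries had 2544, 1393, 2242, 2663 and 2013, all above sham and again with replicate 2 lowest. The rise was 0.95 (SE 0.153, adjusted p = 6.27e-06) in WT, 1.98-fold in the means. It was 0.94 (SE 0.146, adjusted p = 1.75e-06) in IRS1KO, from 982 to 1390.3 in sham (median 1259) to 1803 to 2941 (median 2408). It was 0.89 (SE 0.146, adjusted p = 4.78e-06) in IRS2KO, from 1173 to 1431 (median 1220.2) to 1500.5 to 3187 (median 2533). Of its 50-base stretches 58.5% occur in other genes, mostly the pseudogene Gm12346, which had a mean of 32.4 in WT TAC.

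Dnajb1 (chr8:83608193-83612653, plus strand) encodes Hsp40, the J-domain protein that starts the Hsp70 cycle. It lay between 139 and 228 in WT sham (median 152), and at 252, 173, 227, 254 and 255 in the WT TAC libraries. WT sham replicate 4 at 228 was above 2 of the TAC libraries, so these groups overlapped. The rise was 0.52 (SE 0.130, adjusted p = 0.0013) in WT. In IRS1KO it went from 128 to 178 in sham to 199 to 289 after TAC, and in IRS2KO from 132 to 189 to 192 to 299.7, without overlap. Those rises were 0.69 (SE 0.124, adjusted p = 1.77e-05) and 0.63 (SE 0.124, adjusted p = 5.7e-05).

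**Figure D2:**
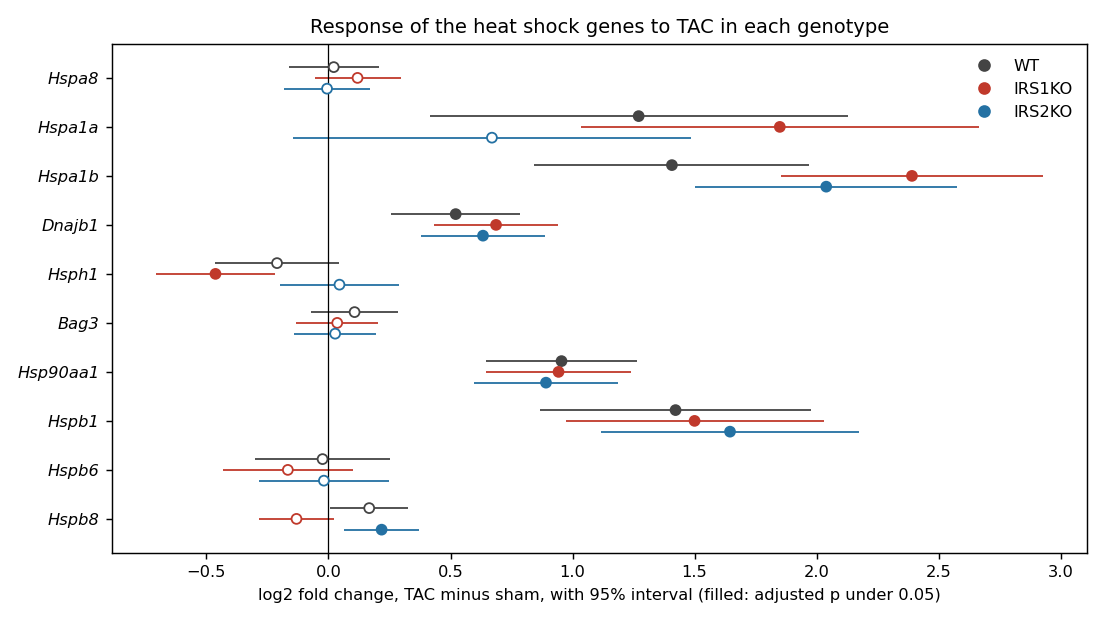
Log2 fold change (TAC minus sham, horizontal axis) of each of the 10 genes in WT, IRS1KO and IRS2KO hearts, with 95% intervals; filled points have an adjusted p under 0.05 in limma. Hspa1b, Hspb1, Hsp90aa1 and Dnajb1 are filled and above 0 in each genotype, while the intervals of Hspa8, Hspb6 and Bag3 cross 0.

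Hspa8, Hspb6 and Bag3 were not called in any genotype on the deposited scale. Hspa8 (chr9:40800984-40810087, plus strand) differed between TAC and sham by 0.02 in WT, 0.12 in IRS1KO and -0.01 in IRS2KO, with 95% intervals that stay between -0.18 and 0.30. WT sham libraries lay between 11800.4 and 14112 and WT TAC libraries at 13811, 12410, 10902, 14163 and 12540.3, within much the same range. Hspb6 (chr7:30552178-30555443, plus strand) differed by -0.02 in WT, with sham libraries between 10731 and 11765 and TAC libraries at 10847, 14958, 8511, 10801 and 11647. These WT TAC libraries were not shifted but spread on both sides of sham. In IRS2KO TAC the Hspb6 libraries ran from 7695 to 16403 (sham 10119.9 to 11388), with 4 below and 2 above every sham library. In IRS1KO the Hspb6 difference was -0.17 (SE 0.130, adjusted p = 0.266). Its IRS1KO TAC libraries ran from 7141 to 10686.5 (sham 8629 to 10775), with 3 below and 0 above every sham library. Bag3 (chr7:128523616-128546981, plus strand), the nucleotide exchange factor that links Hsp70 to small heat shock proteins and autophagy, differed by 0.11, 0.04 and 0.03 in WT, IRS1KO and IRS2KO, with intervals between -0.14 and 0.28.

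Hspb8 (chr5:116408491-116422864, minus strand) rose in IRS2KO by 0.22 (SE 0.0752, adjusted p = 0.0125), from 5624 to 6132 in sham (median 5905) to 5919 to 7659.5 after TAC (median 6993), with 5 of 6 TAC libraries above every sham library. In WT the difference was 0.17 (SE 0.0789, adjusted p = 0.072), with TAC libraries at 6411, 6738, 5493, 7816 and 6958 against 5453 to 6381 in sham. In IRS1KO it was -0.13 (SE 0.0752, adjusted p = 0.126). Hsph1 (chr5:149614287-149636376, minus strand), the Hsp110 exchange factor, fell in IRS1KO by 0.46 (SE 0.119, adjusted p = 0.00111). Its IRS1KO sham libraries ran from 581 to 1050.4 (median 919), and its IRS1KO TAC libraries from 511 to 813 (median 622), so the ranges overlapped. In WT and IRS2KO it did not pass, with differences of -0.21 (SE 0.125, adjusted p = 0.152) and 0.05 (SE 0.119, adjusted p = 0.758).

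These small differences depend on the scale. When each library was instead scaled to the same total, the median of all genes in the TAC comparisons moved up by 0.24 to 0.33, and 79.7%, 76.8% and 79.7% of calls in WT, IRS1KO and IRS2KO were rises, against 51.6%, 50.6% and 50.2% on the deposited scale. On that scale 9 of the 10 genes rose in WT, 8 in IRS1KO and 10 in IRS2KO, where 45.4%, 52.4% and 54.3% of all genes tested rose, with Hspa8 at 0.28, 0.43 and 0.33 and Bag3 at 0.36, 0.34 and 0.36. Hsph1 then no longer fell in IRS1KO (-0.16, adjusted p = 0.317). Hspb6 was at 0.23, 0.14 and 0.32, near the shift of the median gene, and did not pass in IRS1KO (adjusted p = 0.154). The rises of Hspa1b, Hspb1, Hsp90aa1 and Dnajb1 passed on both.

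Markers of the main cell types of the heart moved with the operation. Of all genes tested 28.3%, 32.4% and 31.3% rose in WT, IRS1KO and IRS2KO, and 26.6%, 31.7% and 31.1% fell. In bulk tissue fewer cells of a type and less RNA per cell cannot be told apart. The summed cardiomyocyte markers went from a median of 858310 (788893 to 887490) in WT sham to 536516 (447423 to 780697) in WT TAC, and 5 of 6 fell in each genotype while 1 rose in IRS2KO. All 6 macrophage markers (Adgre1, Csf1r, Cd68, C1qa, Lgals3 and Ccr2) rose in each genotype, from a median sum of 1229 (1086 to 1364) to 4828 (2770.2 to 7638) in WT. Of 5 fibroblast markers 4 rose in WT and 3 in each knockout, where 1 fell, and of 5 endothelial markers 3, 5 and 4 fell in WT, IRS1KO and IRS2KO. Of 6 immediate early genes, a sign of handling or stress, 4 rose in each genotype, and of the 3 skeletal muscle markers tested 2 rose in each. The other lists were mixed or fell: smooth muscle markers tested 2 up and 2 down in WT, and all 3 erythroid markers down in each genotype. None of the listed markers present in the table was at 0 in every library. With the same total per library 4 cardiomyocyte markers fell and 1 rose in each genotype, all 6 macrophage markers rose, and the 3 erythroid falls were not called in IRS1KO. The part of these shifts in the rises of the heat shock genes was not tested.

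Whether the response to TAC differed between genotypes was tested as a difference of responses. None of the 10 genes passed in limma for IRS1KO minus WT, where 0.11% of all genes did, for IRS2KO minus WT (0%), or for IRS1KO minus IRS2KO (0.409%). At an unadjusted p under 0.05 the counts were 2, 0 and 3 of the 10 genes, against 8.88%, 5.21% and 11.4% of all genes. edgeR called none of the 10 in any of the 3, and DESeq2 called 1, Hspb8, in IRS1KO minus IRS2KO. The differences of response nearest to the threshold were those of Hspb8 between IRS1KO and IRS2KO (-0.35, SE 0.106, adjusted p = 0.145), Hsph1 in the same pair (-0.51, SE 0.168, adjusted p = 0.192) and Hspb8 between IRS1KO and WT (-0.30, SE 0.109, adjusted p = 0.4). The intervals leave room for sizeable differences: for Hspa1b the response of IRS1KO minus WT was 0.98, with an interval from 0.20 to 1.76 and an adjusted p of 0.459. For Hsp90aa1 it was -0.01, with an interval from -0.44 to 0.42.

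Between genotypes, the gene that stood apart was Hspa8, which was lower in IRS1KO hearts after either operation. IRS1KO sham libraries had 7259 to 9246 normalised reads (median 7845) and IRS1KO TAC libraries 7123 to 9900.4 (median 9023). WT sham libraries had 11800.4 to 14112, IRS2KO sham 11822 to 14272 (median 12881) and IRS2KO TAC 11219 to 15529.6 (median 12659.9). No IRS1KO library reached the lowest library of the other groups, which was WT TAC replicate 3 at 10902. Against WT the difference was -0.63 in sham (SE 0.0867, adjusted p = 3.9e-06), with a mean 0.646 times that of WT, and -0.53 after TAC (SE 0.0909, adjusted p = 0.000189). Against IRS2KO it was -0.67 in sham (adjusted p = 1.04e-06) and -0.55 after TAC (adjusted p = 5.84e-05, SE 0.0867 for both).

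Hspa8 was the only member called in IRS1KO against WT in sham, where 4.65% of all genes were called, and after TAC (4.7% of all genes). In IRS1KO against IRS2KO it was called with Hsph1 in sham (8.3% of all genes) and alone after TAC (2.36%). Scaling to the same total kept these Hspa8 calls, while among all genes it raised the share of calls that were higher in IRS1KO from 43.0% to 63.1% against WT in sham, from 42.9% to 69.8% against WT after TAC, from 44.2% to 71.0% against IRS2KO in sham and from 45.8% to 61.8% against IRS2KO after TAC. Hspa8 made up, per kb, 15.1% ± 1.34 (SD, n = 6) of the 10 genes in IRS1KO sham, against 21.1% ± 1.25 in WT sham and 22.1% ± 1.22 in IRS2KO sham.

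The reads of Hspa8 can also be placed on processed copies, since 74.8% of its 50-base stretches occur in 13 other genes, 70.0% in Gm15459. The 7 such genes that have a value and share at least 1% of the stretches held 50.8 normalised reads together in WT sham and 72.5 in IRS1KO sham, as means. With these added, Hspa8 was at 12602 ± 948 in WT sham and 8183 ± 757 in IRS1KO sham, without overlap (11842 lowest in WT, 9333 highest in IRS1KO). The added reads are far fewer than the difference in Hspa8, so adding them could not have removed it. Gm15459 has no value, and reads assigned to no gene are not covered. The part of read placement in the Hspa8 difference was not tested.

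Hspa8 lies on chromosome 9. Within 2 Mb of it, a window chosen after the values were seen, 10 other genes were tested. Of these 2 were called in IRS1KO against WT in sham, where 4.65% of all genes were called. Gramd1b, 0.508 Mb before Hspa8, was at 778 ± 50.1 in WT, 326 ± 91.8 in IRS1KO and 689 ± 81.1 in IRS2KO sham hearts, a difference of -1.31 from WT (SE 0.139, adjusted p = 2.03e-08). Sorl1, 1.16 Mb after it, went the other way, at 211 ± 21.7, 386 ± 105 and 226 ± 24.7 (0.83, SE 0.184, adjusted p = 0.00412). After TAC the 2 called neighbours were Gramd1b (-0.76, adjusted p = 0.00105) and AW551984 (1.15, adjusted p = 0.00428), where 4.7% of all genes were called. Around the other members the counts in IRS1KO against WT in sham were 5 of 122 for Hspa1a and Hspa1b, 2 of 63 for Dnajb1, 1 each of 47, 22 and 84 for Hspb8, Hsph1 and Bag3, and 0 of 71, 67 and 43 for Hspb1, Hspb6 and Hsp90aa1. The same counts after TAC were 4 for Hspa1a and Hspa1b, 2 for Dnajb1, 4 for Hspb8, 0 for Hsph1 and 1 for Bag3. They were 3, 2 and 1 for Hspb1, Hspb6 and Hsp90aa1. Of the smooth muscle and pericyte markers, 1 of 4 tested was called in IRS1KO against WT in sham, Acta2, at 5603 and 1990.4, and the median difference of the 4 was -0.02. The summed level of that list, Acta2 included, ran from 14696.8 to 16489.8 in IRS1KO sham and from 11235.5 to 12130.0 in WT sham. Of 5 fibroblast markers 1 was called, Pdgfra, which was lower, at 485 and 613. The part of the chromosomal surroundings or of cell makeup in the Hspa8 difference was not tested.

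**Figure D3:**
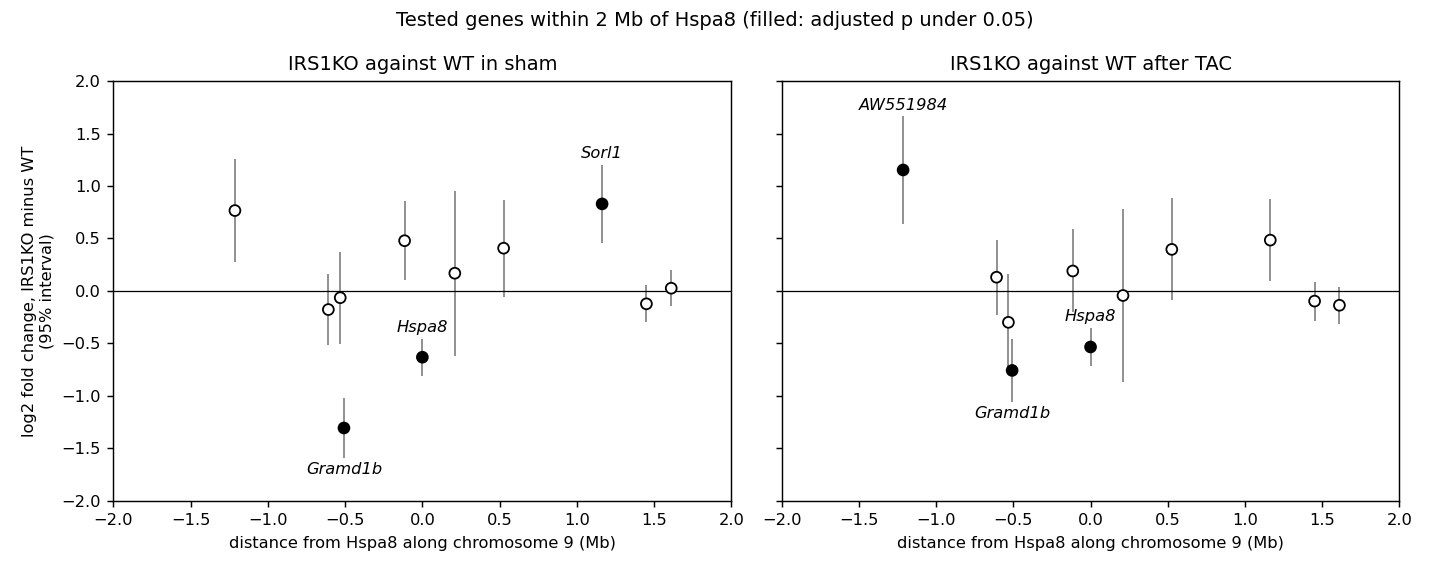
Log2 fold change (IRS1KO minus WT, vertical axis, with 95% intervals) of Hspa8 and the 10 other tested genes within 2 Mb of it, against their distance from Hspa8 in Mb, in sham hearts and after TAC. Filled points have an adjusted p under 0.05: Hspa8 and Gramd1b are lower in both panels, Sorl1 is higher in sham and AW551984 after TAC.

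Hsph1 was higher in IRS1KO than in IRS2KO sham hearts by 0.41 (SE 0.119, adjusted p = 0.0246), at 581 to 1050.4 (median 919) against 556 to 680.2 (median 649.8), with 5 of 6 IRS1KO libraries above every IRS2KO library. The call ended without IRS1KO sham replicate 3 (0.35, adjusted p = 0.0751), 5 (0.36, 0.0733) or 6 (0.36, 0.0713) or without IRS2KO sham replicate 3 (0.37, 0.062). Against WT sham (624 to 725) the difference was 0.36 (SE 0.119, adjusted p = 0.0808), which edgeR and DESeq2 called. Hspb1 was above every WT sham library in all 6 IRS1KO sham libraries, by 0.24 (SE 0.260, adjusted p = 0.719), and did not pass in the fit that shares its spread with the TAC groups. With the IRS1KO and WT sham libraries alone in the fit, Hspb1 and Hspb6 were called too. Hspb6 was at 8629 to 10775 in IRS1KO sham against 10731 to 11765 in WT sham (-0.24, SE 0.130, adjusted p = 0.389).

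In IRS2KO against WT none of the 10 genes was called by limma, in sham (0% of all genes) or after TAC (0%), and none had an unadjusted p under 0.05. Neither edgeR nor DESeq2 called a member in these comparisons. Hspb8 had the narrowest interval in sham, from -0.16 to 0.14, that of Hspa8 ran from -0.13 to 0.22, and Hspa1a had the widest, from -0.61 to 1.02.

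The members also differed in how much they varied from library to library within groups. The residual SD on the log2 scale was 0.477 for Hspb1, larger than in 98.2% of the 544 genes of like level (within 0.5 of its mean log2 value). It was 0.263 for Hsp90aa1, larger than in 81.7% of 803 genes, and 0.115 and 0.135 for Hspb8 and Hspa8, larger than in 9.21% and 10.6% of genes of like level. Hspa1a had the largest at 0.714, at a level where counting error is large. These SDs pool sham and TAC libraries. For Hspb1 the SD was 5.06%, 9.17% and 8.82% of the mean in WT, IRS1KO and IRS2KO sham. After TAC that figure was 40.8%, 34.2% and 51.9%.

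The deviations from the group means were then compared between the genes over the 35 libraries, with a permutation test within groups and adjustment over all 45 pairs. Of the pairs, 19 passed by Pearson r and 13 by Spearman rho. The closest pair was Hspb1 with Hsp90aa1 (r = 0.87, rho = 0.83, permutation p = 2e-05 and 1e-05, adjusted 0.0003 and 0.00045), with r = 0.81 without the 2 libraries farthest from the median of Hspb1. Hspa1b went with Hsp90aa1 (r = 0.76, rho = 0.75, permutation p = 1e-05 and 2e-05, adjusted 0.000225 and 0.00045, r = 0.67 without 2 libraries). It also went with Hspb1 (r = 0.74, rho = 0.69, permutation p = 1e-05 and 8e-05, adjusted 0.000225 and 0.0012, r = 0.64 without 2). Over the 35 libraries, though not within sham, Hspb6 went against them: with Hsp90aa1 r was -0.75 and rho -0.56 (permutation p = 0.00069 and 0.00444, adjusted 0.00411 and 0.025, r = -0.62 without 2). Hspb6 with Hspb1 had r = -0.68 and rho = -0.54 (permutation p = 0.00552 and 0.0081, adjusted 0.0197 and 0.0341), and without 2 libraries r was -0.54 and did not pass (adjusted permutation p = 0.139). The value 1e-05 is the smallest that 100000 permutations give.

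The pairs were also taken within each operation, with no test of the difference between them. Over the 17 TAC libraries 15 pairs passed by Pearson r and 7 by Spearman rho, with r = 0.90 for Hspb1 with Hsp90aa1 and -0.87 for Hspb6 with Hsp90aa1 (adjusted permutation p = 0.0018 and 0.00195). Over the 18 sham libraries none of the 45 pairs passed and 6 had an unadjusted permutation p under 0.05, and the smallest p was that of Hspa1b with Hspb1 (r = 0.68, rho = 0.66, permutation p = 0.00205, adjusted 0.0922). In sham Hspb1 with Hsp90aa1 had r = 0.57 and rho = 0.69 (permutation p = 0.0294 and 0.0031, adjusted 0.236 and 0.0991), and Hspa1b with Hsp90aa1 r = 0.54 and rho = 0.63 (permutation p = 0.0104 and 0.00661, adjusted 0.171 and 0.0991). The negative relations of Hspb6 were absent in sham. There r was 0.40 with Hsp90aa1, 0.36 with Hspa1b and 0.23 with Hspb1 (adjusted permutation p = 0.501, 0.319 and 0.71). Without the 3 TAC libraries nearest to sham, none of the 45 pairs passed over the other 14, and 12 had an unadjusted permutation p under 0.05. There r was 0.82 for Hspb1 with Hsp90aa1 (rho = 0.77, permutation p = 0.00373, adjusted 0.0839) and 0.82 for Hspa1a with Hspa8 (rho = 0.71, permutation p = 0.00123, adjusted 0.0553).

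**Figure D4:**
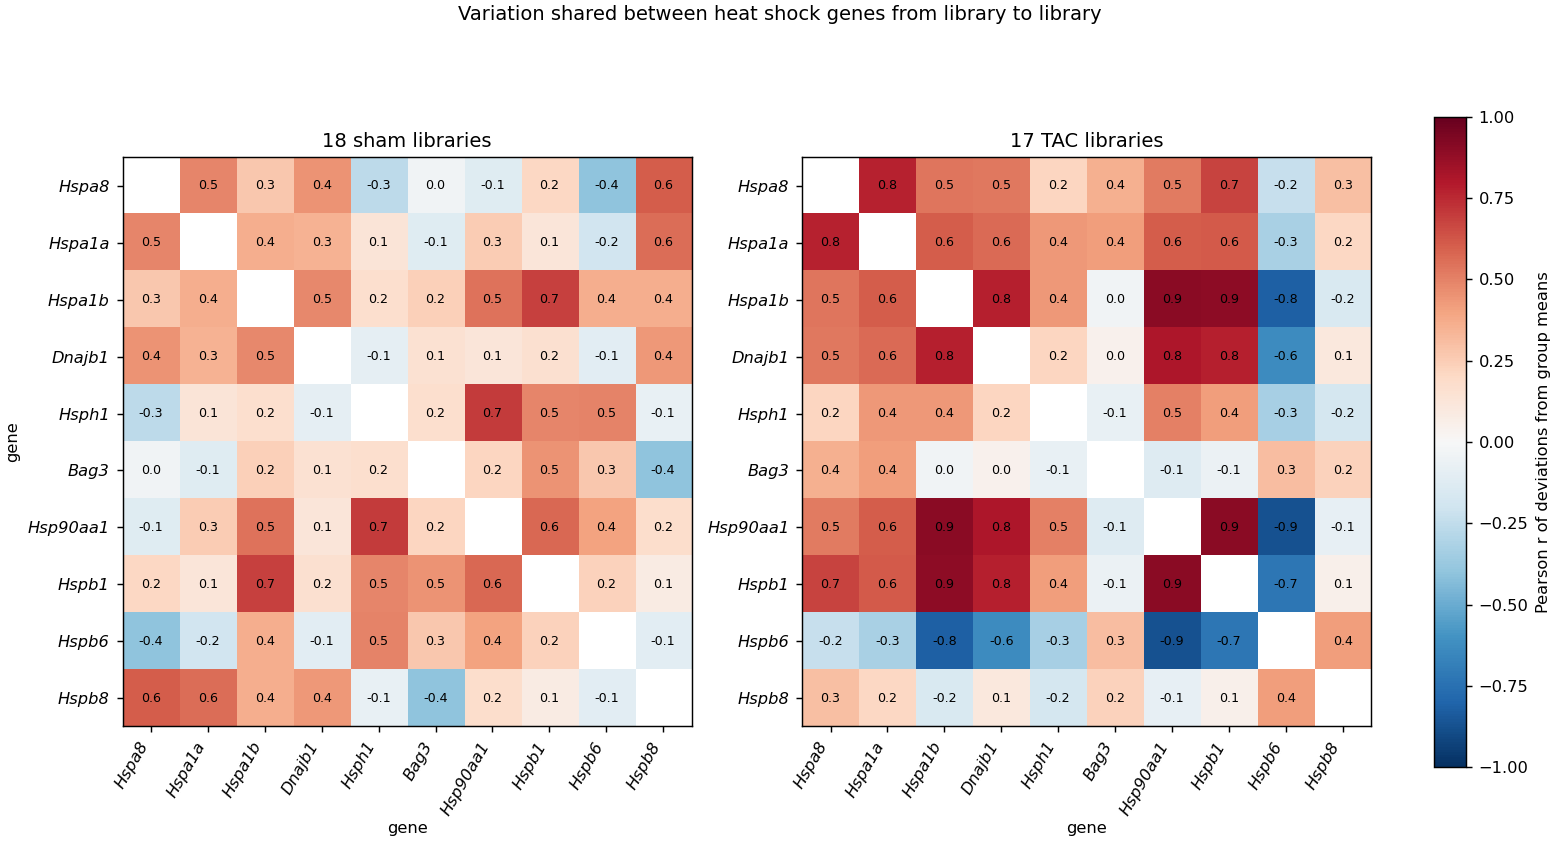
Pearson r between each pair of the 10 genes (both axes) of their deviations from the group means on the log2 scale, over the 18 sham libraries and over the 17 TAC libraries; red is positive and blue negative. In TAC libraries Hspa1b, Dnajb1, Hsp90aa1 and Hspb1 form a red block and Hspb6 is blue against them.

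Within TAC libraries, 5 of the genes also followed the share of reads from the mitochondrial genome, a comparison added after the values were seen. Hspb6 was higher where that share was higher (r = 0.89, rho = 0.83, permutation p = 3e-05, adjusted over the 10 genes 0.0003, r = 0.84 without the 2 farthest libraries). Hsp90aa1 was lower there (r = -0.84, rho = -0.72, permutation p = 0.00028, adjusted 0.0014, r = -0.73 without 2). So were Hspa1b (r = -0.82, rho = -0.74, permutation p = 0.00198, adjusted 0.00396), Hspb1 (r = -0.80, rho = -0.75, permutation p = 0.00121, adjusted 0.00302) and Dnajb1 (r = -0.76, rho = -0.56, permutation p = 0.00095, adjusted 0.00302). In sham libraries none of the 10 passed or had an unadjusted permutation p under 0.05, with adjusted p of 0.336 or above. Without the 3 TAC libraries nearest to sham none passed over the other 14 and 1 had an unadjusted permutation p under 0.05, where r was 0.75 for Hspb6 (rho = 0.67, permutation p = 0.0103, adjusted 0.103) and -0.57 for Hsp90aa1 (rho = -0.39, permutation p = 0.0666, adjusted 0.255). IRS1KO TAC replicate 5 held the most Irs1 of its group and also the largest mitochondrial share (23.6%, group range 16.5% to 23.6%). It was the lowest of its group for Hspb1 (2438), Hsp90aa1 (1803), Hspa1b (29.7), Hspa1a (6.94), Dnajb1 (199) and Hspa8 (7123).

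**Figure D5:**
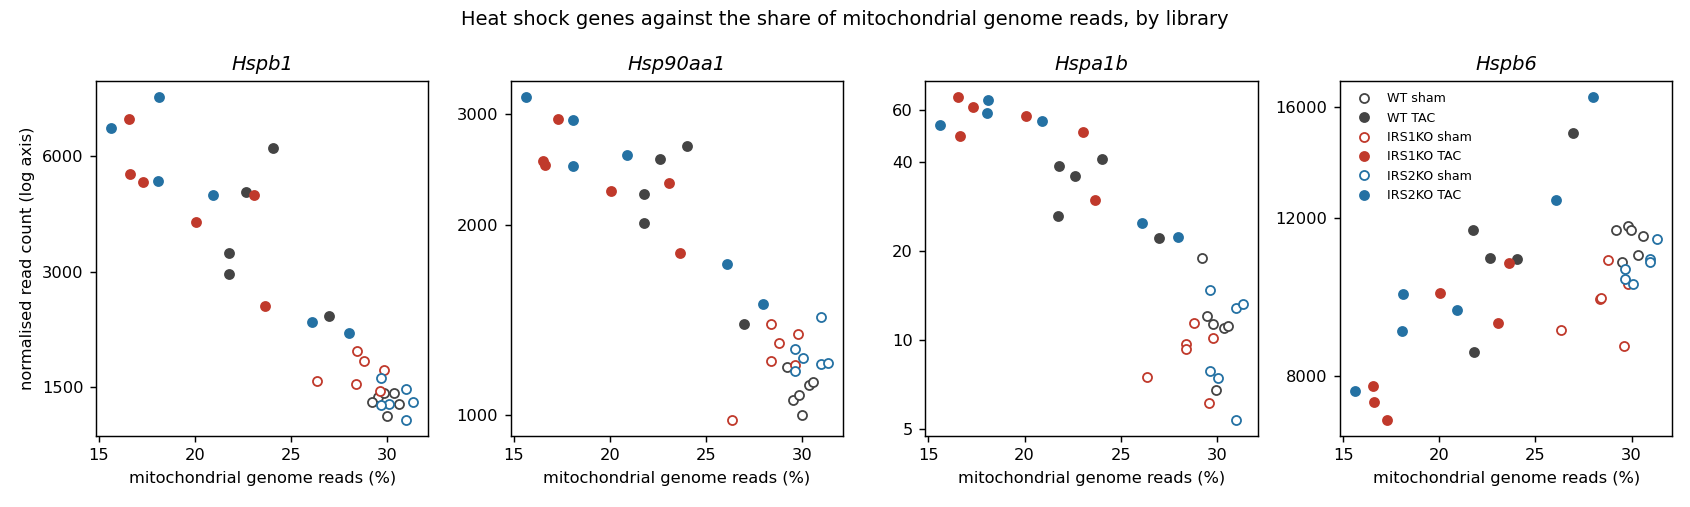
Normalised read count (log axis) of Hspb1, Hsp90aa1, Hspa1b and Hspb6 in every library against the percentage of reads from the mitochondrial genome; open points are sham and filled points TAC libraries. The sham libraries sit together between 26.4% and 31.3%, and across TAC libraries the first 3 genes fall and Hspb6 rises with the mitochondrial share.

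The genes outside the group whose deviations were most like each member, by Pearson r over the 35 libraries and as a description, were as follows. For Hspb1 they were Rras2 (r = 0.95), Qsox1 (0.94) and Tgm2 (0.94). For Hsp90aa1 they were Lrrc59 (0.93), Spcs3 (0.92) and Eif1a (0.91), the last a translation initiation factor. For Hspb6 they were Casq2 (0.91), Fsd2 (0.91) and Ogdh (0.91), of which Casq2 is the calcium-binding protein of the cardiac sarcoplasmic reticulum. Hspa1b was most like Ywhaz (0.82), Tubb2a (0.80) and Morf4l2 (0.79), and Hspa8 most like Hyal2 (0.83), Rpl36 (0.79) and Stx12 (0.77). The likest genes of Dnajb1 were Kctd11 (0.78), Vps18 (0.77) and Rps19 (0.74), of Hspb8 Nudcd3 (0.75), Guk1 (0.75) and Psmc3 (0.75), and of Bag3 Plekhm2 (0.74), Paxx (0.71) and Tns2 (0.68). Hspa1a was most like Ube2f (0.65), Dnajb4 (0.64) and Tbc1d20 (0.63), and Hsph1 most like Papola (0.62), St13 (0.60) and Jak2 (0.59). Dnajb4 and St13, the Hsp70-interacting protein Hip, are themselves chaperone genes.

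The 10 genes were set beside 47 other cytosolic chaperones and regulators, a list chosen with results of these data known. Of these 14 rose and 13 fell in WT after TAC, 15 and 18 in IRS1KO, and 12 and 13 in IRS2KO. Over all genes tested 28.3%, 32.4% and 31.3% rose, and 26.6%, 31.7% and 31.1% fell. The balance within the list depends on the scale. With the same total per library 22 rose and 2 fell in WT, 26 and 5 in IRS1KO, and 26 and 6 in IRS2KO. On that scale 45.4%, 52.4% and 54.3% of all genes rose, and 11.6%, 15.8% and 13.8% fell. On the deposited scale the medians were -0.06, -0.04 and -0.03, against 0.34, 0.40 and 0.43 over the 10 members and -0.01 in each genotype over all genes. Cryab, the small heat shock protein alphaB-crystallin, rose by 0.72, 0.88 and 0.98 in WT, IRS1KO and IRS2KO (adjusted p = 0.00045, 1.1e-05 and 2.5e-06), from 17093 to 28677 in the WT means. Hspa1l, next to Hspa1a and Hspa1b on chromosome 17, rose by 1.02, 1.05 and 1.03, and the J-domain gene Dnajb4 by 0.75, 0.73 and 0.54. Hspb7 rose by 0.52, 0.79 and 0.62, and the BAG protein gene Bag2 by 0.59, 0.53 and 0.59. Fkbp4, an Hsp90 co-chaperone of steroid receptors, fell by 1.22, 1.59 and 1.34, from 4346 to 1916 in the WT means without overlap, while Fkbp5, its counterpart, rose by 1.70 in IRS1KO. With the same total per library Fkbp5 was called higher in WT too (0.99, adjusted p = 0.0313). The divergent Hsp70 genes Hspa12a and Hspa12b fell in each genotype, Hspa12a by 0.92, 1.34 and 1.02, though with the same total per library Hspa12b was not called in WT (-0.15, adjusted p = 0.168). Of the transcription factors of the family, Hsf1 fell by 0.29, 0.48 and 0.26 (adjusted p = 0.0025, 1.7e-06 and 0.0028), while Hsf2 was at 0.03, 0.13 and 0.00 and did not pass. With the same total per library Hsf1 was at -0.03, -0.18 and 0.07 (adjusted p = 0.751, 0.052 and 0.426), so the falls were not called on that scale and the sign turned in IRS2KO. Hsf2 was then called higher, at 0.29, 0.44 and 0.34 (adjusted p = 0.0122, 0.000105 and 0.0019).

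In other compartments and partners the counts were as follows. On the deposited scale 28.3%, 32.4% and 31.3% of all genes rose in WT, IRS1KO and IRS2KO, and 26.6%, 31.7% and 31.1% fell. With the same total per library 11.6%, 15.8% and 13.8% of all genes fell. Of 12 endoplasmic reticulum chaperones 9 rose in WT, 9 in IRS1KO and 8 in IRS2KO, led by Sdf2l1 (1.94, 1.87 and 1.63) and Pdia4 (1.20, 1.17 and 1.27), and 1, Dnajb9, fell in IRS2KO (-0.33, and 0.01 with the same total per library, adjusted p = 0.95). Of 7 mitochondrial chaperones none rose and 5, 6 and 5 fell, with Clpb at -0.69, -0.76 and -0.70, and 3, 6 and 3 fell with the same total per library. Of 14 chaperonin and prefoldin subunits 7 rose in each genotype, with Cct8 at 0.49, 0.61 and 0.61, and 2, 3 and 2 fell, with Pfdn6 at -0.25, -0.52 and -0.32. With the same total per library Pfdn6 was at 0.00, -0.22 and 0.02 and was called lower in IRS1KO alone, the one fall in this list on that scale. Of 12 genes of chaperone-assisted autophagy and BAG3 partners 8 rose in each genotype, among them Flnc, the Z-disc filamin that this pathway clears (1.33, 1.57 and 1.69), and Synpo2l (1.70, 1.23 and 1.77). Map1lc3b, the autophagosome protein LC3B, fell by 0.53, 0.69 and 0.82.

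Counts between genotypes are given for the 47 cytosolic chaperones beside the share of all genes called in either direction. In IRS1KO against WT sham hearts 0 of the 47 rose and 2 fell, where 4.65% of all genes were called. The falls were those of Hspb7 (-0.43, SE 0.0903, adjusted p = 0.0022) and Dnajc5 (-0.19, adjusted p = 0.019). Hspb7, a small heat shock protein of heart muscle, was at 26519 in IRS1KO and 35680.1 in WT sham hearts without overlap. Against IRS2KO in sham 4 fell, where 8.3% of all genes were called. They were Hspb7 (-0.40), Dnajc5 (-0.24), Dnajc7 (-0.25) and Fkbp5 (-1.39, adjusted p = 0.015). After TAC limma called none of the 47 in IRS1KO against WT or against IRS2KO, where 7 and 5 had an unadjusted p under 0.05, against 20.6% and 12.3% of all genes. In IRS2KO against WT it called none after either operation, and 0 had an unadjusted p under 0.05.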

How the data were processed

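RNA sequencing libraries of mouse heart apex (35, in 6 groups of genotype and operation) were analysed from one deposited table. Its values are a normalised count signal per gene, made by the authors from read counts; the values themselves show that each column was divided by one factor per library, equal to the size factor DESeq2 gives. HISAT2 2.0.6, HTSeq 0.7.1, DESeq2 and GRCm38 are listed, with no role or order, per the submitters' processing notes. Which annotation version was used is not given in the sources here. In each column the values were whole multiples of the worth of 1 read (100% of values within a tolerance of 0.001), so reads were recovered, 11707111 to 14609467 per library. Between libraries of a group counts differed beyond sampling noise (chi-square per degree of freedom of at least 2.54 over 85 pairs).

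Genes with a mean of at least 10 (13695 of 27012) entered limma 3.58.1 (R 4.3.3) on log2(value + 1), all 6 groups in one model with trend and robust moderation. Benjamini-Hochberg adjustment ran over these genes, with a threshold of 0.05. Fold changes are on the log2(value + 1) scale, which understates low genes. Folds of means, correlations and permutation tests (100000 within groups) used Python 3.11.15, NumPy 2.4.6, pandas 2.3.3 and SciPy 1.17.1. Gene places are those of GENCODE vM21 (GRCm38), where 26886 of the IDs were found (99.5%). The tests were tried on simulated data first.

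The members and lists were chosen with earlier results of these data known. Text names all 10 members, the called genes of each list with the largest changes (up to 4 a direction for cytosolic chaperones, up to 2 for the others), Hsf1, Hsf2 and Cryab, and the 3 genes most alike each member by Pearson r.

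Alternatives were pseudocounts of 0.5 and 5, quantile normalisation, rescaling each library to one total, a filter at a mean of 50 or none, only the groups compared, library weights, the replicate number as a block, leaving out each library, and 2 count tests of the recovered reads (edgeR 4.0.16, DESeq2 1.42.0). edgeR called 7460 genes in WT, 8871 in IRS1KO and 8534 in IRS2KO for TAC against sham, and limma 7515, 8777 and 8546. The relation to the mitochondrial share, the neighbours within 2 Mb and the repeats without 3 TAC libraries were added after seeing the data.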

Additional observations from a re-analysis of the deposited data

Results flagged for a closer look

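In each group of 5 or 6 libraries the highest and the lowest value of every gene were checked for standing apart from the others, 60 groups in all, of which chance marks about 1 in 20. WT sham replicate 4 stood apart for Dnajb1, at 228 normalised reads against a group median of 152. IRS2KO sham replicate 3 stood apart for Hsph1, at 556 against a group median of 649.8, and the higher Hsph1 of IRS1KO against IRS2KO in sham hearts was not called without it (0.37, adjusted p = 0.062, limma).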

How the results depend on the processing

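Over 490 alternatives for the 21 called differences of single members, 484 kept the direction and the call, 6 kept the direction and lost the call, and 0 reversed. The losses were Hspa1a in WT after TAC with quantile normalisation (0.79), Hsph1 in IRS1KO after TAC with the same total per library (-0.16), and Hsph1 in IRS1KO against IRS2KO in sham without 1 of 4 libraries (0.35 to 0.37). Counts of members called after TAC were 5, 6 and 5 in WT, IRS1KO and IRS2KO, and 3 in WT with a mean of at least 50, which removes Hspa1a and Hspa1b. With the same total per library they were 9 in WT and 10 in IRS2KO. For IRS1KO against WT in sham the count of 1 became 3 with only the groups compared, 3 with library weights, and 2 with edgeR or DESeq2. For IRS1KO against WT after TAC it was 1, and 3 with library weights. For IRS1KO against IRS2KO after TAC it was 1, and 2 with DESeq2 (Hspb8 added). For the difference of response between IRS1KO and IRS2KO it was 0, and 1 with quantile normalisation, library weights or DESeq2. Leaving out 1 library gave 5 to 6, 6 and 5 members for TAC in WT, IRS1KO and IRS2KO. It gave 1 to 2 for IRS1KO against WT in sham (2 without IRS1KO sham replicate 1) and 1 to 2 for IRS1KO against IRS2KO in sham. After TAC it gave 1 to 3 for IRS1KO against WT (3 without WT TAC replicate 3, 2 without IRS1KO TAC replicate 5) and 1 to 2 for IRS1KO against IRS2KO (2 without IRS2KO TAC replicate 3). Of 19 correlated pairs, 0 passed in sham libraries and 0 in TAC libraries without the 3 nearest to sham. Except where a filter removed genes, the cause of these shifts was not tested.

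Same-numbered libraries of different groups correlated from -0.60 to 0.57 (median 0.09), and 38 of 85 pairs were over 0.1. Of 35 libraries, 15 correlated best with their own number. These values do not settle whether replicate numbers mark a pairing or a batch. With the replicate block the counts after TAC were 6, 6 and 5, and 2 for IRS1KO against IRS2KO after TAC, where Hspb8 was added. In the other comparisons the block changed no count.

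The depth of 11707111 to 14609467 reads leaves Hspa1a and Hspa1b, the genes with the fewest reads of the 10, the least precise.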
